A study of Mus musculus with 20 samples.

Results

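The 10 genes described here are the small nucleolar RNA (snoRNA) host genes Gas5, Snhg1, Snhg3, Snhg5, Snhg6, Snhg8, Snhg11, Snhg12, Snhg15 and Snhg18. They were chosen by gene symbol, 10 of the 55421 genes in the deposited count table, with earlier results of these counts known. The values that led to the choice are not recorded, so the comparisons below describe the 10 genes and the p-values only place each gene against the threshold set over the whole table. The libraries are bulk poly(A) RNA-seq of whole mouse liver. All mice were wildtype by genotype, labelled female, and received at 6 months of age an AAV8 vector that carried SaCas9 under the Tbg promoter, which is active in hepatocytes, together with a U6-driven guide RNA. The guide was directed against Rosa26, a locus used as a neutral target, or against Hira, the gene of a chaperone subunit for histone H3.3. Livers were taken 3 weeks or 6 months after injection, which gave 4 groups of 5 libraries, named Rosa26 and HIRA at 3 weeks and at 6 months. Liver cells other than hepatocytes keep Hira in this model, and in bulk tissue fewer cells of a type and less RNA per cell cannot be told apart. Nothing in the labels says how the 5 libraries of a group were raised beyond their number, so the p-values measure the spread between these libraries.

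A snoRNA host gene carries snoRNAs inside its introns. After splicing, the intron is debranched and trimmed to the snoRNA, which guides the chemical modification of ribosomal or spliceosomal RNA, box C/D snoRNAs directing 2'-O-methylation and box H/ACA snoRNAs directing pseudouridylation. The spliced exons of many such genes encode no conserved protein and are removed by nonsense-mediated decay, so that the level of the spliced RNA follows both transcription and decay. Gas5, growth arrest specific 5, was named for its accumulation in growth-arrested cells.

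All 10 genes matched the name given to them. In GENCODE M21 (GRCm38) each held at least 1 annotated snoRNA on its own strand, 33 entries in all, with 10 in Gas5, 8 in Snhg1, 5 in Snhg12, 2 each in Snhg3, Snhg5 and Snhg11, and 1 each in Snhg6, Snhg8, Snhg15 and Snhg18. A pair of entries named Snord80 in Gas5 and a pair named Snora16a in Snhg12 overlap each other. Of the 33 entries, 4 overlapped no exon of their host and 29 lay in an intron of some transcripts and overlapped an exon of another, since the annotation holds transcripts with retained introns. Snhg11 was annotated as a protein-coding gene and the other members as noncoding. The 33 snoRNAs themselves were almost absent from these poly(A) libraries, with 47 counts over all 20 libraries and 0 counts for 29 of them, so the values below are those of the host RNA and say nothing about snoRNA levels.

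**Figure D1:**
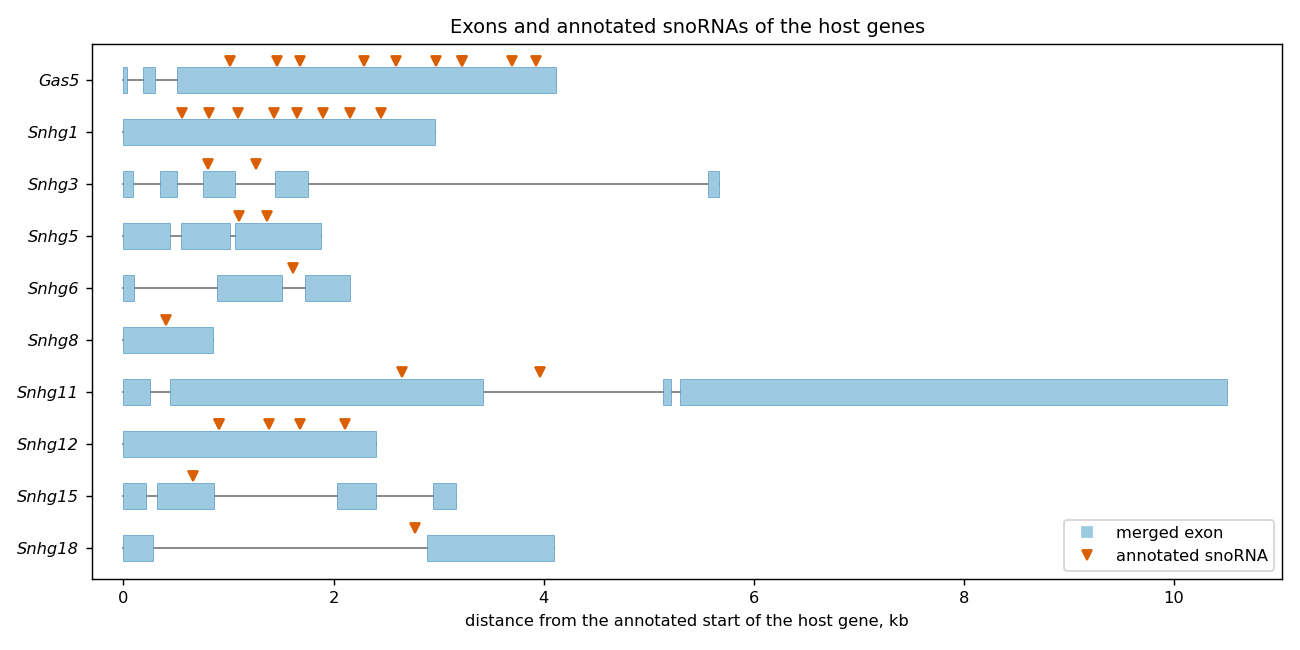
Map of the 10 host genes, with the distance from the annotated start of the gene in kb on the x axis. Blue blocks are exons merged over all transcripts and orange triangles are the centres of annotated snoRNAs, most of which sit over a merged exon because some transcripts retain the intron. Gas5 and Snhg1 carry the longest rows of snoRNAs, with 10 and 8 entries, and entries that overlap share a triangle.

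The snoRNAs of the hosts on which the results turn are shown here in DNA letters. Capitals mark the C box TGATGA within the first 16 bases, the D box CTGA within the last 12 bases or the ACA trinucleotide within the last 8 bases. Snora9 is the snoRNA of Snhg15 (chr11:6528033-6528165, minus strand), Snord87 that of Snhg6 (chr1:9942463-9942549, minus strand), and Gm25187 (chr2:158378222-158378354, plus strand) and Gm25129 (chr2:158379534-158379666, plus strand) are those of Snhg11. Snord80 (the longer entry, chr1:161037601-161037681, plus strand) and Snord47 (chr1:161038082-161038158, plus strand) are examples from Gas5, and Snord99 (chr4:132310691-132310764, plus strand) is from Snhg12.
Snora9: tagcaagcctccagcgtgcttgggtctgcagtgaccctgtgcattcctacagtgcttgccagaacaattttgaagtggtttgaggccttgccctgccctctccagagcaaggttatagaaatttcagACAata
Snord87: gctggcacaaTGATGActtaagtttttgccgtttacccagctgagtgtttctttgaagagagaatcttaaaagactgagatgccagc
Gm25187: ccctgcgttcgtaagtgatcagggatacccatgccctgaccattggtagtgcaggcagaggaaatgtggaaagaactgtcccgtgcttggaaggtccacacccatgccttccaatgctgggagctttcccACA
Gm25129: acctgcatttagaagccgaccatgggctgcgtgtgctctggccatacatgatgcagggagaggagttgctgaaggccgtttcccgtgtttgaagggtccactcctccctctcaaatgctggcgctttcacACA
Snord80: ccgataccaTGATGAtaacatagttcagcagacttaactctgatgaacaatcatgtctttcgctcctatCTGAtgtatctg
Snord47: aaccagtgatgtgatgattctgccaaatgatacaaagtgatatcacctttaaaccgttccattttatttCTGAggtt
Snord99: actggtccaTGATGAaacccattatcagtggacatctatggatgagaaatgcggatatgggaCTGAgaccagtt

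The snoRNAs of Snhg15 and Snhg11 end in the ACA motif of the H/ACA class. Snord80 of Gas5 and Snord99 of Snhg12 carry both boxes of the C/D class, and Snord47 of Gas5 the D box only under this rule. Over the 33 entries, 15 held both boxes at these places, 6 the D box only, 1 the C box only (Snord87) and 9 the ACA, while 2 held none of these at these places. The counts depend on these windows, and the CTGA of Snord87 begins just outside its window. The snoRNAs inside a host could be nearly alike or unlike. Snora73a and Snora73b of Snhg3 were identical at 198 of 205 positions and the 2 snoRNAs of Snhg5, Snord50a and Snord50b, at 71 of 72, whereas Gm25187 and Gm25129 of Snhg11 matched at 56 of 133 positions when laid side by side without gaps.

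The library totals ranged from 19916430 to 24079736 counts. The target gene Hira differed by -0.48 ± 0.14 (log2, SE) between HIRA and Rosa26 livers at 3 weeks (adjusted p = 0.197, edgeR) and by -0.10 ± 0.14 at 6 months (adjusted p = 0.794), and the counts do not show whether a remaining transcript was edited. Loss of the HIRA protein in this CRISPR model was reported by the study from a western blot. The library labelled HIRA 6 months replicate 5 stood apart from its label, with 9 counts of Xist and 2041 counts over 4 Y-chromosome genes, against 6286 to 8436 and 0 to 13 in the other 19 libraries. Without that library 0 of the 10 genes passed the test for either guide effect and 1 for the time effect in Rosa26 livers, the same counts as with it, while the calls over all genes went from 45 to 103 for the guide at 3 weeks, from 299 to 395 for the guide at 6 months and from 74 to 213 for time in Rosa26 livers. The values of Snhg11 that rest on that library are given with and without it.

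Gas5 (ENSMUSG00000053332.13, GRCm38 chr1:161034422-161038539, plus strand) dominated the set. It took 39.4 to 56.2% of the counts of the 10 genes, the lowest share being in HIRA 6 months replicate 5, and stood at 77.6 CPM on average (CPM, the count scaled to a common library size after TMM), between 58.0 and 96.8 CPM over the 20 libraries. Per kilobase of merged exon, Gas5 was at 20.7 ± 2.85 CPM (SD, n = 20) and Snhg8 at 19.3 ± 3.46 CPM, and Gas5 exceeded Snhg8 in 14 of 20 libraries. On this scale these 2 genes did not differ beyond their spread, whereas in the deposited FPKM, which rest on another length, Gas5 at 97.2 to 185 lay above Snhg8 at 29.3 to 60.3 in all 20 libraries. Snhg6 followed at 8.19 ± 1.64, Snhg12 at 4.70 ± 0.815 and Snhg1 at 3.36 ± 0.771 CPM per kb, and each step down from Snhg8 to Snhg1 held in 20 of 20 libraries.

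The lower places in this order were less sharp. Snhg5 had 3.08 ± 0.752, Snhg15 2.56 ± 1.31, Snhg3 1.86 ± 0.546, Snhg18 1.29 ± 0.365 and Snhg11 0.940 ± 1.25 CPM per kb (0.670 ± 0.325 for Snhg11 without HIRA 6 months replicate 5), and neighbours in this order kept it in 12 to 16 of 20 libraries. Merged exons include retained introns, which lowers the value of a gene whose spliced form is short. In the deposited FPKM the first 5 places were held by Gas5, Snhg8, Snhg6, Snhg12 and Snhg1 as well, with medians of 149 for Gas5 and 50.0 for Snhg8, and Snhg3 moved from place 8 to place 6.

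The genes also differed in their spread. The coefficient of variation over the 20 libraries, which includes the differences between the groups, was 13.8% for Gas5, 17.4% for Snhg12 and 17.9% for Snhg8. It was 51.2% for Snhg15 and 133% for Snhg11, whose highest library was 23.8 times its lowest. Without HIRA 6 months replicate 5 the values for Snhg11 were 48.5% and 5.38 times. Within groups, Snhg15 was no more variable than Snhg3 and Snhg5, with an SD of log2 CPM of 0.403 against 0.404 and 0.401, while that of Gas5 was 0.168. Counting alone gives 2.43% for Gas5, 11.5% for Snhg15 and 7.67% for Snhg11 at their mean counts. Snhg3 and Snhg18 were the thinnest members, with 23 to 64 and 22 to 86 counts per library, and counting alone gives 15.8% and 15.4% for them.

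**Figure D2:**
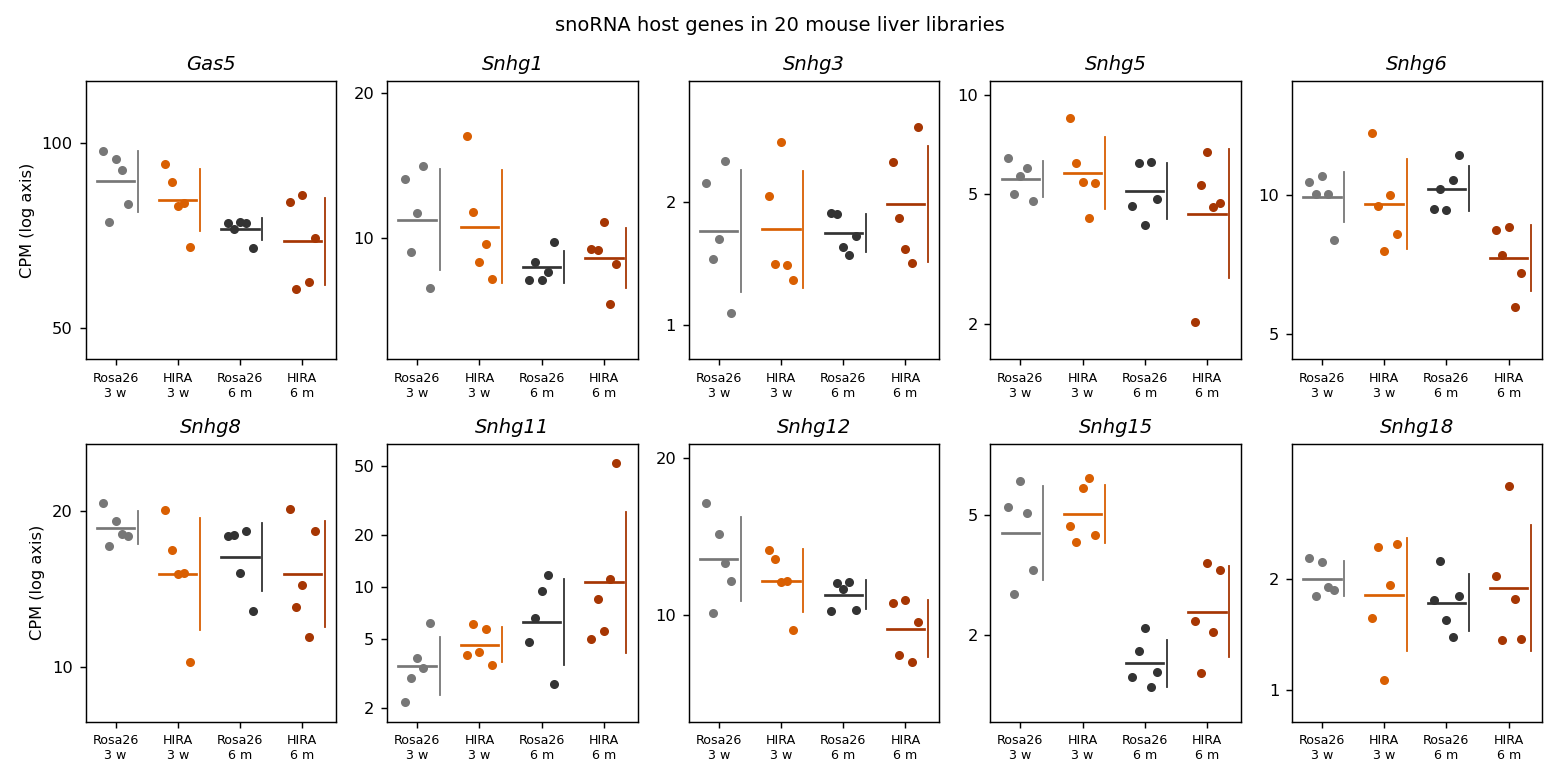
CPM of each host gene on a log axis, 1 panel per gene, for the 4 groups of 5 libraries. Points are libraries, horizontal lines the geometric group means and vertical lines 1 SD of log2 CPM to either side. Snhg15 is lower at 6 months than at 3 weeks under both guides without overlap, all 5 HIRA libraries of Snhg6 lie below the 5 Rosa26 libraries at 6 months, and 1 HIRA 6-month library of Snhg11 lies at 51.8 CPM.

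The first question was whether the HIRA guide changed the host genes. At 3 weeks it moved none of them past the threshold. Of the 10 members 0 had an adjusted p under 0.05 (edgeR quasi-likelihood test, Benjamini-Hochberg over 22867 genes), where 0.197% of all genes tested did, and 0 had an unadjusted p under 0.05, against 8.87% of all genes. DESeq2 also called 0 members, and 0.997% of all genes. The share over all genes depends on single libraries, with 4 genes called without HIRA 3 weeks replicate 4 and 103 without HIRA 6 months replicate 5, where 45 were called with all libraries. Of the 8 clock genes tested 4 were called higher in this comparison. Over the 8, 6 were higher and 2 lower, with log2 fold changes from -1.72 to 4.55 and a median of 1.45. Their part in the members' values was not tested. No member separated its HIRA from its Rosa26 libraries, as 2.69% of all genes did. The median log2 fold change was -0.03 over the members and -0.01 over all genes. Gas5 differed by -0.10 ± 0.10 (SE, 95% interval -0.32 to 0.12) and Snhg8 by -0.26 ± 0.16 (interval -0.59 to 0.07, adjusted p = 0.696), which was the lowest p among the members. For Gas5 the interval leaves room for a fall of at most 0.32 on the log2 scale. For Snhg11, at 0.34 ± 0.53, it runs from -0.77 to 1.45.

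At 6 months 0 of 10 members passed the test for the HIRA guide, where 1.31% of all genes did, and 3 of 10 had an unadjusted p under 0.05 (Snhg6, Snhg11 and Snhg15), against 15.5% of all genes. Only Snhg6 remained without HIRA 6 months replicate 5, 1 of 10. The 299 genes behind the first share became 49 without Rosa26 6 months replicate 4, 104 without replicate 1 of that group, and 0 when only the 6-month libraries were fitted, where 0 members were called as well. DESeq2 called 1 member, Snhg6, and 3.91% of all genes. The median log2 fold change was 0.01 over the members and 0.03 over all genes. The signs were split, with 5 members higher and 5 lower. Gas5 stood at -0.05 ± 0.10 (interval -0.27 to 0.17).

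Snhg6 (ENSMUSG00000098234.7, chr1:9941959-9944118, minus strand), the host of Snord87, was the member with the lowest p in this comparison. Its CPM in the 5 Rosa26 libraries were 9.35, 10.3, 9.29, 10.8 and 12.3, and in the 5 HIRA libraries 8.41, 7.42, 8.54, 5.72 and 6.76. The HIRA libraries were all lower than the Rosa26 libraries, and Snhg6 was the 1 member of 10 whose groups did not overlap, as was so for 3.15% of all genes. The means were 10.4 ± 1.22 and 7.37 ± 1.18 CPM (SD, n = 5). On the log2 scale the HIRA libraries differed by -0.49 ± 0.15 (SE), with an adjusted p of 0.0975 by edgeR. DESeq2 gave -0.51 with an adjusted p of 0.0236. Without HIRA 6 months replicate 5 the edgeR value was -0.46 ± 0.16 (adjusted p = 0.129). At 3 weeks the same gene stood at 9.97 ± 1.17 CPM in Rosa26 and 9.79 ± 2.37 CPM in HIRA livers, and the difference between the 2 guide effects was -0.47 ± 0.21 (adjusted p = 0.732). No cell type marker passed the test of edgeR for the guide at 6 months, and the lists differed in sign. Above 0 were 1 of 5 Kupffer cell markers (median -0.11), 4 of 5 bile duct cell markers (median 0.22) and 5 of 6 hepatocyte markers (median 0.20). The values were above 0 for 5 of 5 stellate cell markers (median 0.48, 2 at an unadjusted p under 0.05), 5 of 5 endothelial markers (median 0.32, 2 at an unadjusted p under 0.05) and 8 of 8 lymphocyte markers (median 0.41, 0 at an unadjusted p under 0.05), where the median over all genes was 0.03. Their summed levels in Rosa26 and HIRA livers overlapped, at 150 to 264 and 179 to 568 CPM for the stellate, 106 to 176 and 125 to 199 CPM for the endothelial and 14.4 to 66.1 and 13.0 to 64.5 CPM for the lymphocyte list. Their part in the value of Snhg6 was not tested.

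Snhg11 (ENSMUSG00000044349.15, chr2:158375638-158386145, plus strand), the protein-coding annotated host of Gm25187 and Gm25129, showed the highest fold change at 6 months, and it rested on the library that stood apart. Its CPM were 4.82, 6.62, 9.55, 11.7 and 2.75 in Rosa26 and 5.01, 8.61, 5.60, 11.2 and 51.8 in HIRA livers, the last value being that of replicate 5 with 1020 counts. The other 4 HIRA libraries lay within the range of the Rosa26 libraries. The log2 fold change was 1.21 ± 0.51 (adjusted p = 0.251) with that library and 0.09 ± 0.34 (adjusted p = 0.933) without it. Between 3 weeks and 6 months in HIRA livers the corresponding values were 1.78 ± 0.52 (adjusted p = 0.255) and 0.67 ± 0.34 (adjusted p = 0.523). In Rosa26 livers, to which that library does not belong, Snhg11 had 3.75 ± 1.53 CPM at 3 weeks and 7.09 ± 3.59 CPM at 6 months, and the groups overlapped (0.91 ± 0.53, adjusted p = 0.508). That library enters the shared spread of the fit, and without it this value had an adjusted p of 0.196 by edgeR.

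The second question was how the host genes differed between 3 weeks and 6 months after injection. The time effect in Rosa26 livers uses the same 3-week Rosa26 libraries as the guide effect at 3 weeks, so the 2 comparisons are not independent. Here 1 of 10 members passed the test, Snhg15, which fell, where 0.324% of all genes passed. The 74 genes behind this share became 1 without Rosa26 3 weeks replicate 1, 3 without Rosa26 6 months replicate 4 and 213 without HIRA 6 months replicate 5. The groups of Snhg15 did not overlap, as was so for 3.50% of all genes, and no other member separated its groups. Of the 10 members 8 had a negative log2 fold change, and their median was -0.19 against 0.00 over all genes. An unadjusted p under 0.05 was found for 2 of 10 (Gas5 and Snhg15), against 12.8% of all genes, and without HIRA 6 months replicate 5 for 3 of 10, Snhg11 being added. The median over the members in HIRA livers was -0.23, with 6 of 10 negative, against 0.03 over all genes.

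Snhg15 (ENSMUSG00000085156.8, chr11:6525591-6528760, minus strand), the host of Snora9, is a noncoding RNA with 29 to 152 counts per library. In Rosa26 livers its CPM were 5.32, 2.75, 6.52, 5.09 and 3.30 at 3 weeks and 1.45, 1.77, 2.11, 1.34 and 1.51 at 6 months. Every 6-month library lay below every 3-week library. The means were 4.60 ± 1.55 and 1.64 ± 0.307 CPM (SD, n = 5). The log2 fold change was -1.49 ± 0.25 (SE, 95% interval -2.01 to -0.96), which leaves 0.357 of the 3-week level (adjusted p = 0.0195, edgeR). By unadjusted p it was number 9 of the 22867 genes tested. The call of edgeR was lost without Rosa26 3 weeks replicate 1 (adjusted p = 0.05004), 3 (0.0565) or 4 (0.0682) and without Rosa26 6 months replicate 4 (0.0758), and with the deposited FPKM in limma (-1.02, adjusted p = 0.0672), while the fold change stayed between -1.62 and -1.33 with any single library left out. DESeq2 gave -1.48 with an adjusted p of 2.92e-05.

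In HIRA livers Snhg15 was lower at 6 months too. Its CPM were 4.61, 4.08, 6.15, 6.65 and 4.29 at 3 weeks and 2.23, 1.50, 3.48, 2.05 and 3.30 at 6 months, again without overlap, which 1 of 10 members and 1.47% of all genes showed. The means were 5.16 ± 1.17 and 2.52 ± 0.848 CPM (SD, n = 5), and the log2 fold change of -1.03 ± 0.25 (interval -1.55 to -0.52) did not pass the threshold of edgeR (adjusted p = 0.12). No member did in HIRA livers, where 0.0656% of all genes passed and 4 of 10 members had an unadjusted p under 0.05 (Snhg6, Snhg11, Snhg12 and Snhg15), against 8.95% of all genes. There were 3 without HIRA 6 months replicate 5, Snhg11 having dropped out. By DESeq2 Snhg15 passed in HIRA livers, with -1.04 and an adjusted p of 0.0117, where 0.617% of all genes did. Without HIRA 6 months replicate 5 edgeR gave -1.15 ± 0.26 (adjusted p = 0.0802). With the replicate number as a block edgeR gave -1.05 (adjusted p = 0.0492), where 37 of 22867 genes were called.

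The 2 time effects of Snhg15 differed by 0.45 ± 0.35 on the log2 scale (interval -0.28 to 1.18, adjusted p = 0.868), so a weaker fall in HIRA than in Rosa26 livers was not shown. At 6 months the gene stood at 1.34 to 2.11 CPM in Rosa26 and 1.50 to 3.48 CPM in HIRA livers, which overlapped, with a guide effect of 0.62 ± 0.26 (adjusted p = 0.244). At 3 weeks the guide effect was 0.17 ± 0.24 (adjusted p = 0.927).

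Other measures moved with time in the same libraries. In Rosa26 livers 3 of the 8 circadian clock genes tested were called higher at 6 months (Dbp, Per3 and Tef), where 0.324% of all genes were called, and the summed level of the 8 ran from 142 to 235 CPM at 3 weeks and from 289 to 475 CPM at 6 months. Npas2 and Arntl had negative values that did not pass (-1.48 ± 0.54 and -0.91 ± 0.39). The 3-week Rosa26 libraries, which both comparisons use, stood apart in this list, since 4 of 8 were also called higher in HIRA than in Rosa26 livers at 3 weeks (Ciart, Dbp, Per3 and Tef), where 0.197% of all genes were called. In HIRA livers 0 of these 8 genes were called with time by edgeR (0 at an unadjusted p under 0.05), the sums being 226 to 563 and 164 to 604 CPM. No marker of hepatocytes, lymphocytes, Kupffer cells, endothelial cells, stellate cells or bile duct cells passed the edgeR test in any comparison. With time in Rosa26 livers 5 of 6 hepatocyte (median -0.24), 5 of 5 endothelial (-0.362) and 5 of 5 bile duct markers (-0.114) were lower. Higher there were 8 of 8 lymphocyte (0.769), 4 of 5 Kupffer (0.266) and 2 of 5 stellate markers (-0.125). In HIRA livers 8 of 8 lymphocyte (0.655), 5 of 5 stellate (0.329) and 4 of 5 bile duct markers (0.091) were higher. So were 3 of 6 hepatocyte (-0.056), 2 of 5 Kupffer (-0.011) and 1 of 5 endothelial markers (-0.278). In Rosa26 livers the summed level of 5 endothelial markers ran from 170 to 217 CPM at 3 weeks and from 106 to 176 CPM at 6 months. That of 5 Kupffer cell markers ran from 253 to 340 CPM and from 140 to 1000 CPM, and that of 8 lymphocyte markers from 15.7 to 27.7 CPM and from 14.4 to 66.1 CPM. The part of these in the fall of Snhg15 was not tested.

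The promoter of Snhg15, the member that passed the test, is shown from RefSeq (GRCm38.p6, chr11:6528711-6529010, minus strand), from 250 bases before to 50 bases after the annotated start. Capitals mark TGACGTCA, 88 bases before the start, and CACGTG, which begins at base 12 of the transcript.
Snhg15 promoter: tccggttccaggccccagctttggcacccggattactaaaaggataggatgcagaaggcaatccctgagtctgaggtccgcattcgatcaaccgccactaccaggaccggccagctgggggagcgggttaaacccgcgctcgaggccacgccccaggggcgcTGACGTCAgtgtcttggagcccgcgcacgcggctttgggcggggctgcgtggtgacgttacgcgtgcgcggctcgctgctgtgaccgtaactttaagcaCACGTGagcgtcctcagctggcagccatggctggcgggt

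Both motifs read the same on either strand and were searched on both, and they did not overlap. TGACGTCA, the palindrome known as the cAMP response element, stood in 1.79% of the 32851 promoter windows of the table, and among the members in 1 window each of Gas5 and Snhg15. CACGTG, known as an E-box, stood in 7.15% of all windows and among the members in that of Snhg15 alone. GGGCGG, a GC box, was found in 35.7% of all windows and in those of Gas5, Snhg1, Snhg5, Snhg8, Snhg15 and Snhg18, and TATAAA in 13.6% of all windows and in those of Snhg1, Snhg3, Snhg5 and Snhg8. Windows were matched for 9 of the 10 members. These are matches of letters, and no binding was measured here.

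Apart from Snhg11, whose values are given above, the other members had smaller differences with time than Snhg15, and none passed the test of edgeR. Gas5 had 96.8, 74.3, 94.2, 90.2 and 79.4 CPM in Rosa26 livers at 3 weeks and 74.0, 72.5, 74.3, 74.0 and 67.6 CPM at 6 months. The 2 groups overlapped through their nearest libraries, and the log2 fold change was -0.26 ± 0.10 (interval -0.48 to -0.05, adjusted p = 0.276). In HIRA livers it was -0.21 ± 0.10 (adjusted p = 0.567). Snhg12, which carries 5 snoRNA entries, stood at -0.25 ± 0.12 (adjusted p = 0.412) and -0.31 ± 0.12 (adjusted p = 0.47), and Snhg1, with 8, at -0.36 ± 0.17 (adjusted p = 0.392) and -0.25 ± 0.17 (adjusted p = 0.734). Snhg6 differed by 0.06 ± 0.15 in Rosa26 and -0.41 ± 0.15 in HIRA livers (adjusted p = 0.915 and 0.395). Snhg3, Snhg5, Snhg8 and Snhg18 had log2 fold changes between -0.35 and 0.20 in both comparisons.

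The levels of Snhg1, Snhg3, Snhg5, Snhg8, Snhg12 and Snhg18 overlapped between the groups in each of the 4 comparisons. Snhg8, which hosts 1 snoRNA and stood beside Gas5 in level per kb, had 18.6 ± 1.38 CPM in Rosa26 and 15.4 ± 3.56 CPM in HIRA livers at 3 weeks, and 16.4 ± 2.35 and 15.5 ± 3.64 CPM at 6 months (SD, n = 5). Its Rosa26 libraries at 3 weeks spanned 17.1 to 20.7 CPM and its HIRA libraries 10.2 to 20.0 CPM, a wider span whose difference was not tested. Snhg12 had 13.0 ± 2.43, 11.7 ± 1.53, 10.9 ± 0.696 and 9.48 ± 1.18 CPM in the same order of groups, Rosa26 and HIRA at 3 weeks, then Rosa26 and HIRA at 6 months. Its lowest group, HIRA at 6 months, spanned 8.12 to 10.7 CPM and its highest, Rosa26 at 3 weeks, 10.1 to 16.4 CPM. Snhg1 had 11.2 ± 2.61, 10.9 ± 3.23, 8.71 ± 0.683 and 9.16 ± 1.27 CPM. The 3-week libraries of Snhg1 ran up to 16.3 CPM, and the 6-month libraries lay between 7.29 and 10.8 CPM.

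Snhg5, the host of the near-identical Snord50a and Snord50b, had 5.56 ± 0.698, 5.94 ± 1.59, 5.17 ± 1.01 and 4.66 ± 1.70 CPM in the 4 groups. A single HIRA library at 6 months, replicate 1, held 2.03 CPM of Snhg5 (52 counts), while the other 4 held 4.55 to 6.72 CPM. Snhg3, the host of Snora73a and Snora73b, had 1.78 ± 0.591, 1.79 ± 0.645, 1.69 ± 0.180 and 2.06 ± 0.693 CPM. Snhg18 had 2.01 ± 0.222, 1.90 ± 0.599, 1.74 ± 0.320 and 2.02 ± 0.909 CPM, and in HIRA livers at 6 months its libraries spanned 1.37 to 3.57 CPM. The 95% intervals of the 4 comparisons reached from -0.74 to 0.84 for these 2 genes.

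**Figure D3:**
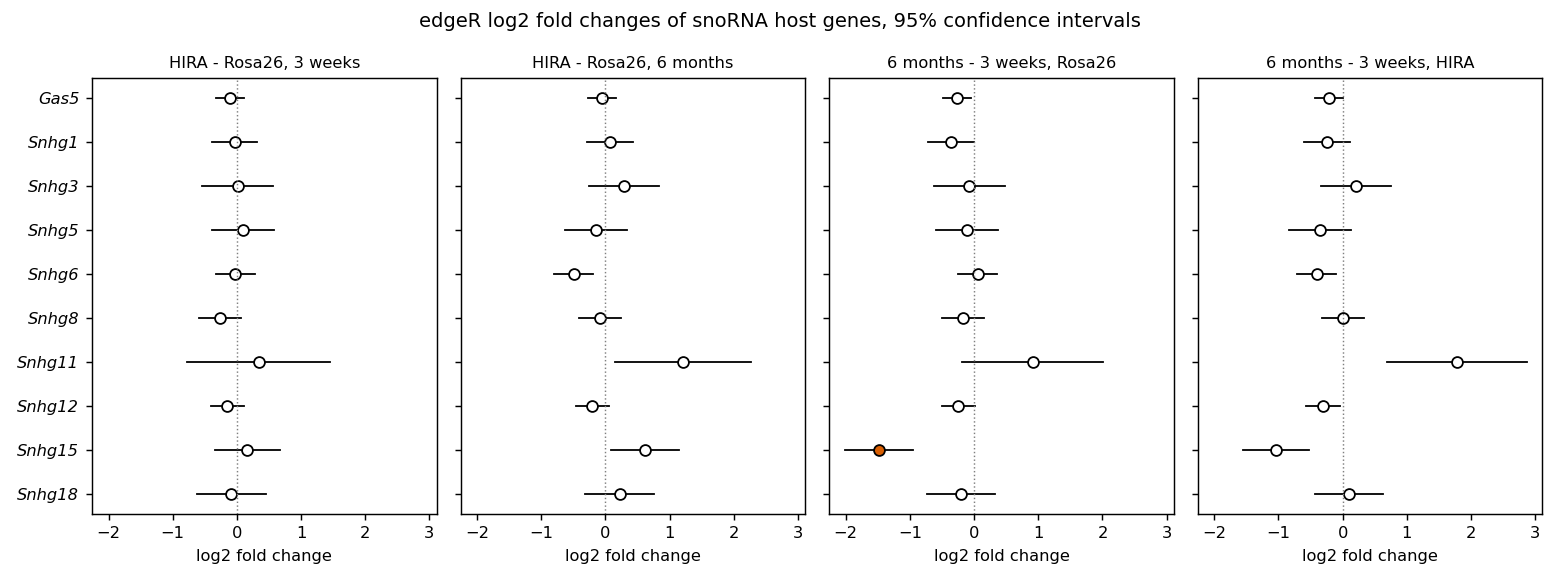
Log2 fold changes of the 10 host genes from edgeR with 95% confidence intervals, for the HIRA guide at 3 weeks and 6 months and for 6 months against 3 weeks under each guide. The filled point is the 1 value with an adjusted p under 0.05, Snhg15 in Rosa26 livers at -1.49, and the widest intervals belong to Snhg11.

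Averaged over both times, the HIRA guide moved 0 of 10 members past the threshold in edgeR, where 2.85% of all genes passed, and 3 of 10 had an unadjusted p under 0.05, against 16.6% of all genes. These were Snhg6 at -0.26 ± 0.10 (adjusted p = 0.197), Snhg11 at 0.77 ± 0.37 (adjusted p = 0.297) and Snhg15 at 0.39 ± 0.18 (adjusted p = 0.265). Without HIRA 6 months replicate 5 only Snhg6 had an unadjusted p under 0.05, 1 of 10, and Snhg11 stood at 0.22 ± 0.24. The change of the guide effect with time was called for 0 of 10 members and for 0% of all genes, and 1 member, Snhg6, had an unadjusted p under 0.05, against 6.62% of all genes. The count was 0 without HIRA 6 months replicate 5, with an unadjusted p of 0.0543 for Snhg6 in edgeR.

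Within groups, some host genes went up and down together from library to library. After the group means of log2 CPM were removed, the correlation over the 20 libraries was positive for 36 of the 45 pairs of members, with a median r of 0.23, and above 0.5 for 11 pairs. It was 0.91 between Gas5 and Snhg12, 0.84 between Snhg1 and Snhg6 and 0.75 between Gas5 and Snhg8. Other members shared less of this. Against the other members r ran from -0.41 to 0.22 for Snhg11, from -0.42 to 0.33 for Snhg18 and from -0.04 to 0.44 for Snhg5. Without HIRA 6 months replicate 5 the range for Snhg11 was -0.46 to 0.06, and 34 of 45 pairs were positive, with a median r of 0.26. These are descriptions over libraries that share depth, scaling and RNA preparation, and no p is given. The same counts over pairs of other genes are not given here, so these do not set the host genes apart. Gas5 lies on chromosome 1, and Snhg3 and Snhg12 both lie on chromosome 4 and had an r of 0.41. The part of chromosome position in these values was not tested.

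**Figure D4:**
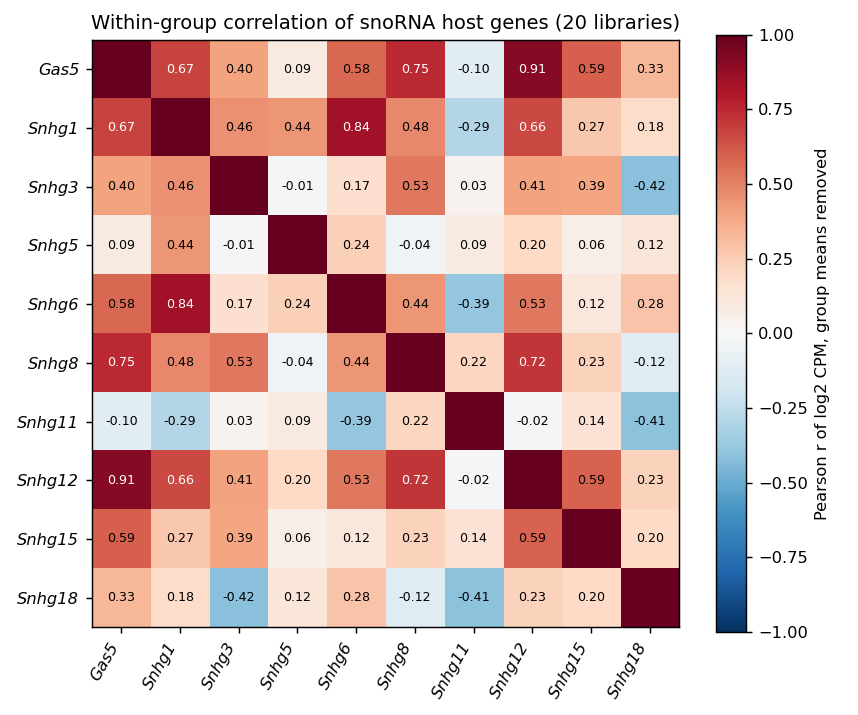
Pearson correlation of log2 CPM between each pair of host genes over 20 libraries after removal of the 4 group means, with red for positive and blue for negative values. The block of Gas5, Snhg1, Snhg8 and Snhg12 holds values from 0.48 to 0.91, and the row of Snhg11 lies between -0.41 and 0.22.

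Of 12892 other genes with a mean of at least 1 CPM, those most like the members' mean profile over the 20 libraries (Pearson r of log2 CPM with the mean centred log2 CPM of the 10 members) were Polr1d at 0.84, Olfr77 at 0.80, 1110038B12Rik at 0.79, Zfas1 at 0.78 and Vps11 at 0.76. With group means removed the 5 values were 0.84, 0.78, 0.74, 0.75 and 0.79. 1110038B12Rik and Zfas1 are themselves annotated noncoding snoRNA hosts, with 2 and 3 snoRNAs. Polr1d encodes a subunit shared by RNA polymerases I and III. The ranking depended on HIRA 6 months replicate 5, and without it, a setting chosen after seeing the data, the first 5 were 2410006H16Rik at 0.89, Zfas1 at 0.89, Polr1d at 0.84, Rabggtb at 0.82 and Plekhj1 at 0.81. Of the 5 genes 2 were in both lists, Polr1d and Zfas1, while Olfr77, 1110038B12Rik and Vps11 stood at 0.77, 0.77 and 0.72. 2410006H16Rik and Rabggtb are annotated hosts too, with 3 snoRNAs each.

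Hosts outside the 10 were tested in the same fits. The annotation placed a snoRNA inside 57 further noncoding and 258 protein-coding genes of the table, of which 25 and 230 were tested. By edgeR 1.18% of the 255 genes were called for the guide at 6 months, against 1.31% of all genes, 0.784% against 0.324% with time in Rosa26 livers and 2.75% against 2.85% in the average. By DESeq2 these shares were 7.06% against 3.91%, 1.96% against 2.23% and 8.24% against 5.58%. The calls named here are values of single genes and no result about hosts. Among the noncoding hosts the edgeR test called 1 gene in 1 comparison, Snhg17, which fell by 0.31 ± 0.06 under the HIRA guide averaged over both times (adjusted p = 0.00759). Its means were 22.5 ± 2.71 and 18.2 ± 0.856 CPM in Rosa26 and HIRA livers at 3 weeks and 26.8 ± 2.42 and 21.5 ± 1.95 CPM at 6 months (SD, n = 5). The median over the 25 genes in that comparison was -0.01, and that over all genes 0.02.

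Among the 230 protein-coding hosts 0 were called at 3 weeks (13 at an unadjusted p under 0.05, 5.65% against 8.87% of all genes) and 3 at 6 months, where 1.31% of all genes were called. St3gal2, a sialyltransferase gene, rose by 1.03 ± 0.22 (adjusted p = 0.0282) and Ppan, which encodes a ribosome biogenesis factor, by 0.53 ± 0.10 (adjusted p = 0.0175), while Mpdz, a PDZ domain scaffold gene, fell by 0.62 ± 0.15 (adjusted p = 0.046). With time in Rosa26 livers 2 of 230 fell (0.870% called, against 0.324%), Ppan by 0.60 ± 0.10 (adjusted p = 0.0195) and Nop56 by 0.55 ± 0.10 (adjusted p = 0.0227), and in HIRA livers 0 did (22 at an unadjusted p under 0.05). Averaged over both times, St3gal2 (0.66 ± 0.16) and Gnl3 (0.30 ± 0.08) rose under the HIRA guide, and Mpdz (-0.40 ± 0.11), Rpl39 (-0.39 ± 0.10), Snx12 (-0.30 ± 0.07) and Rpl10 (-0.24 ± 0.07) fell, at adjusted p of 0.026 to 0.0467 by edgeR. Rpl39 and Rpl10 encode ribosomal proteins and Gnl3 the nucleolar protein nucleostemin. The DESeq2 shares given above are 18, 5 and 21 hosts, where edgeR called 3, 2 and 7. The 3 calls at 6 months and the 2 with time in Rosa26 livers were all lost by edgeR without Rosa26 6 months replicate 4 (adjusted p for Ppan of 0.0621 and 0.0758, for Nop56 of 0.0774, for St3gal2 of 0.0896 and for Mpdz of 0.133), and the 3 at 6 months were also lost when only the 6-month libraries were fitted (0.0899 for Ppan, 0.195 for St3gal2 and 0.143 for Mpdz). In the average 2 hosts were called without that library, Rosa26 6 months replicate 1 or HIRA 3 weeks replicate 5, while Snhg17 kept its call without any 1 library. The shared 6-month Rosa26 libraries enter both values of Ppan, whose means were 17.9 ± 2.80 and 11.8 ± 0.843 CPM in Rosa26 livers at 3 weeks and 6 months and 17.5 ± 1.80 and 17.0 ± 1.36 CPM in HIRA livers.

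The proteins that bind and mature snoRNAs were described from lists of textbook members. Of the 4 box C/D core genes, which encode the methyltransferase fibrillarin and its partners, 1 passed the test in 1 comparison. Nop56 fell with time in Rosa26 livers, from 23.0 ± 1.90 to 15.7 ± 2.20 CPM (SD, n = 5), and there Nop58 differed by -0.51 ± 0.11 (adjusted p = 0.0521), Fbl by -0.05 ± 0.09 and Snu13 by -0.04 ± 0.08. Of the 4 box H/ACA core genes, which encode the pseudouridine synthase dyskerin and its partners, 0 passed in any comparison. In the same one Dkc1 stood at 0.22 ± 0.10, Nhp2 at -0.04 ± 0.14, Nop10 at 0.01 ± 0.11 and Gar1 at -0.23 ± 0.18. The lists of snoRNP assembly factors (9 tested), of enzymes that release snoRNAs from introns (5 tested) and of nonsense-mediated decay factors (10 tested) gave 0 calls in the 6 comparisons by edgeR. The lowest adjusted p of the decay list was 0.0553, with time in Rosa26 livers, where its median was -0.16 and 3 of 10 had an unadjusted p under 0.05, against a median of 0.00 and 12.8% over all genes. The lowest of the assembly list was 0.17 and that of the release list 0.19, both for the guide effect averaged over both times, where 2 of 9 and 2 of 5 genes had an unadjusted p under 0.05, against 16.6% of all genes.

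Genes that overlap a member or start beside it could take part of its reads, since the sources used here do not say whether counting used the strand. Rcc1, on the same strand as Snhg3 with 135 shared exon bases, had 415% of the counts of Snhg3, and Gm17300, on the opposite strand with 705 shared bases, had 69.3%, so the values of Snhg3 are uncertain. Mcmdc2, opposite Snhg6 with 127 shared bases, had 1.64% of its counts. Slc3a2 starts 106 bases from Snhg1 on the other strand, Sema5a 148 bases from Snhg18 and Zbtb37 427 bases from Gas5, with no shared exon bases. None of these 6 neighbours passed the test in any of the 6 comparisons by edgeR, although in Rosa26 livers with time Gm17300 (-0.62 ± 0.23), Rcc1 (-0.37 ± 0.14) and Zbtb37 (-0.32 ± 0.14) had unadjusted p of 0.0149, 0.0153 and 0.0372.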

How the data were processed

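RNA-seq of 20 mouse livers was used, 4 groups of 5, with groups and replicate numbers from the sample titles. The authors deposited raw counts per gene, whole numbers without normalization, and FPKM values made by the authors. Per the submitters' notes reads were aligned to mm10 (the assembly GRCm38) with STAR, and HTSeq and Cufflinks are named without a role, while the methods of the study name HOMER for counting. Of 55421 gene identifiers 55240 (99.7%) matched GENCODE M21 without the version. Symbols come from the table.

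The 10 members and all gene lists were chosen with earlier results of these data known. The quasi-likelihood test of edgeR 4.0.16 (R 4.3.3) with TMM scaling was run on the deposited counts of the 22867 genes with at least 10 counts in total, with 1 coefficient per group and Benjamini-Hochberg adjustment over all of them, at a threshold of 0.05. The 95% intervals use the degrees of freedom of that test. CPM use TMM-scaled totals, and log2 CPM a prior count of 2. The test was checked on simulated counts. Intervals cover the spread between libraries. No 2 libraries of a group held identical counts or agreed within sampling noise.

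Alternatives were DESeq2 1.42.0, size factors in place of TMM, 2 other filters, the replicate number as a block, fits of only the groups compared, log2(FPKM + 1) with limma 3.58.1 with blank cells as missing, and leaving out each library. Named genes are the 10 members, Hira, the snoRNP core genes, list, neighbour and other host genes with adjusted p under 0.05 (up to the 5 largest changes per list and comparison) and the 5 genes most like the members. Other genes named with values (the neighbours, Xist and the Y-chromosome genes) were picked once their values were known. The clock list held 9 symbols, of which 8 were tested. Sequences are from GENCODE M21 transcripts and RefSeq promoter windows. Tables were handled with Python 3.11.15, pandas 2.3.3 and numpy 2.4.6, and plots with matplotlib 3.10.9. One passage of the study's text gives the other sex for these mice than the labels and a figure legend do, and the labels were followed.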

Additional observations from a re-analysis of the deposited data

Results flagged for a closer look

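In 2 of the 40 sets of 5 libraries (10 genes in 4 groups) a library lay far from the other 4 of its group, with a gap to its nearest neighbour that was large against the whole range on the log2 scale (Dixon's test). Gas5 in Rosa26 6 months replicate 5 had 67.6 CPM against 72.5 to 74.3 CPM in the other 4 libraries, a gap of 0.738 of the range. Snhg6 in Rosa26 3 weeks replicate 5 had 8.00 CPM against 10.1 to 11.0 CPM, a gap of 0.716 of the range. Chance alone gives such a gap in about 1 of 20 groups. Snhg11 in HIRA 6 months replicate 5, at 51.8 CPM against 5.01 to 11.2 CPM, did not reach this limit on the log2 scale.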

How the results depend on the processing

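The median log2 fold change of the 10 members kept to within the spread between libraries under every alternative run, and no called value changed sign. With any 1 library left out, it ran from -0.12 to 0.04 for the guide at 3 weeks, -0.08 to 0.07 at 6 months, -0.24 to -0.14 for time in Rosa26 livers, -0.30 to -0.11 for time in HIRA livers, -0.10 to 0.03 for the averaged guide effect and 0.02 to 0.27 for its change with time. DESeq2 called 1 member at 6 months (Snhg6) and 1 with time in HIRA livers (Snhg15), where edgeR called 0, and 18, 5 and 21 other snoRNA hosts at 6 months, with time in Rosa26 livers and in the average, where edgeR called 3, 2 and 7. Over all genes DESeq2 called 228 at 3 weeks, 895 at 6 months, 511 with time in Rosa26 livers, 141 with time in HIRA livers and 1277 in the average, where edgeR called 45, 299, 74, 15 and 651. With log2(FPKM + 1) in limma 0 members were called with time in Rosa26 livers, where the main count was 1, and leaving out 1 library gave 0 to 1. For the other hosts, leaving out 1 library gave 0 to 6 calls at 6 months, 0 to 3 with time in Rosa26 livers and 2 to 6 in the average. The replicate block gave 1 member with time in HIRA livers (Snhg15, -1.05, adjusted p = 0.0492) and 5 other hosts at 6 months, and changed no other count of members. The deviations of same-numbered libraries from their group means had r over 0.1 in 14 of 30 pairs, from -0.309 to 0.335. Differently numbered libraries were not compared, so these values do not decide whether the numbers pair the libraries. The replicate block called 151 of all genes with time in Rosa26 livers, where the main fit called 74. In HIRA livers it called 37 with time, where the main fit called 15. Snhg3 and Snhg18 had 22 to 86 counts per library, and how far depth limits their comparisons was not tested. The causes of these changes were not tested.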
